A study of Homo sapiens with 24 samples.

Results

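The genes described here are the 10 core genes of the MHC class II pathway on Clariom D human arrays, taken as the rows of the expression table whose symbol is HLA-DRA, HLA-DRB1, HLA-DPA1, HLA-DPB1, HLA-DQA1, HLA-DQB1, HLA-DMA, HLA-DMB, CD74 or CIITA. All 10 were found among the 25161 gene symbols of the table, each with a single row. The 24 arrays came from 2 established human cell lines, SU-DHL-4 from a diffuse large B-cell lymphoma, its sample type labelled as pleural effusion, and DG-75 from a Burkitt lymphoma, labelled as peritoneal effusion. Both were cultured for 72 h with DMSO as the solvent control, with 1 µM Entospletinib (Ento), an inhibitor of the kinase SYK that relays signals of the B-cell receptor, with 0.01 µM AZD5153 (AZD), a bivalent inhibitor of the BET proteins that read acetylated chromatin, or with both at these doses (Ento+AZD). Each of the 8 groups held 3 arrays, numbered 1 to 3 in the labels and described as biological triplicates, and each disease was represented by a single line. The study asked how the BET inhibitor, the SYK inhibitor and their combination change expression in each lymphoma, and the comparisons here put that question to antigen presentation.

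MHC class II molecules display peptides from proteins taken up or recycled by a cell to CD4+ T cells, and B cells carry them permanently. An alpha and a beta chain (the DR, DP and DQ pairs) form the receptor, CD74, the invariant chain, fills its groove and escorts it to the endosome, and HLA-DM, made of HLA-DMA and HLA-DMB, exchanges the remaining CD74 fragment for a peptide. CIITA, the class II transactivator, does not bind DNA itself but is recruited by factors on a conserved upstream module that includes the X box, bound by the RFX complex, and the Y box, bound by NF-Y. Loss of class II from lymphoma cells is a known route by which they escape T cells.

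The upstream sequences are shown because this module is the shared feature through which CIITA acts on the genes whose values follow. RefSeq promoter windows (GRCh38.p14, 250 bases before to 50 after a gene's start) were at hand for 8 of the 10 genes, in 9 windows, and not for HLA-DRA and CIITA. The X-box-like letters searched were AGNNACNGA and the Y-box-like letters ATTGG, which may share a single base, and both were chosen after these promoters had been read. Matches are given on the gene's strand. The capitals mark the matches, the X-box-like match coming first. HLA-DMB carries the first match but no Y-box-like match on its own strand in this window.
HLA-DMB, chr6:32941057-32941124, minus strand: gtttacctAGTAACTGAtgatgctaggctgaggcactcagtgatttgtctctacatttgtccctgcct
HLA-DMA, chr6:32953164-32953218, minus strand: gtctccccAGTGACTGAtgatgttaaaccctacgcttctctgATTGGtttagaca
HLA-DQB1, chr6:32666733-32666786, minus strand: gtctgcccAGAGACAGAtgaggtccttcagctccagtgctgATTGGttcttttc
HLA-DQA1, chr6:32637296-32637350, plus strand: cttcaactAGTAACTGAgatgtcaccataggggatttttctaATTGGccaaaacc
HLA-DRB1, chr6:32589882-32589935, minus strand: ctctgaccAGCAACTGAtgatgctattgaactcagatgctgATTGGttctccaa
HLA-DRB5, chr6:32530365-32530418, minus strand: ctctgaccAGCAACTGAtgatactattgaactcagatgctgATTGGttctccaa

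An X-box-like match was present in 6 of the 8 genes, against 8.06% of all 35116 promoter windows, and a Y-box-like match in 5 of the 8, against 20.3%. Counting either strand, an X-box-like match was in 6 of the 8 genes, against 15.3% of all windows, and a Y-box-like match in 7, against 34.6%. HLA-DRB1, HLA-DQA1, HLA-DQB1 and HLA-DMA had the first followed by the second within 40 bases, an order found in 96 of all windows (0.273%). The gap between the matches was 24 or 25 bases in these genes. HLA-DPA1 and HLA-DMB had the X-box-like letters alone, HLA-DPB1 the Y-box-like letters alone, and CD74 had neither on its own strand. HLA-DRB5, a close relative of HLA-DRB1, is shown because its upstream stretch is nearly the same in the reference. A match is a string of letters and not evidence that a factor was bound in these cells, and the arrays hold no measure of binding.

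Values are log2 expression, on which a difference of 1 is a 2-fold difference in signal. The array medians lay between 4.89 and 5.14 and the arrays within each group had correlations of 0.981 to 0.992 over all rows. B-cell identity was visible in both lines, with CD79A, a signalling chain of the B-cell receptor, at DMSO means of 12.09 (SU-DHL-4) and 11.32 (DG-75). MS4A1, which encodes CD20, had DMSO means of 11.57 (SU-DHL-4) and 7.12 (DG-75). The T-cell chains CD3D, CD3E and CD3G lay between 2.29 and 4.19 in both lines, and of the plasma cell markers PRDM1, a regulator of that fate, was at 2.55 and 2.83 while JCHAIN, which joins secreted antibodies, was at 11.93 and 11.68. DCN, a fibroblast proteoglycan, was at 9.24 in SU-DHL-4 against 4.76 in DG-75, while PDGFRB of the same marker list was at 4.22 and 4.19. Table values carry no detection call, so a low log2 value is not a statement of absence. As in any bulk sample, fewer cells that express a gene and less RNA per cell cannot be told apart.

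HLA-DRA, the invariable partner of every DR beta chain, lay between 12.04 and 12.46 on all 24 arrays, in a table whose highest value was 13.22. Whether the array compresses differences at that level was not tested. Levels are not ranked between genes, since signals of different probes are not on a common scale.

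**Figure D1:**
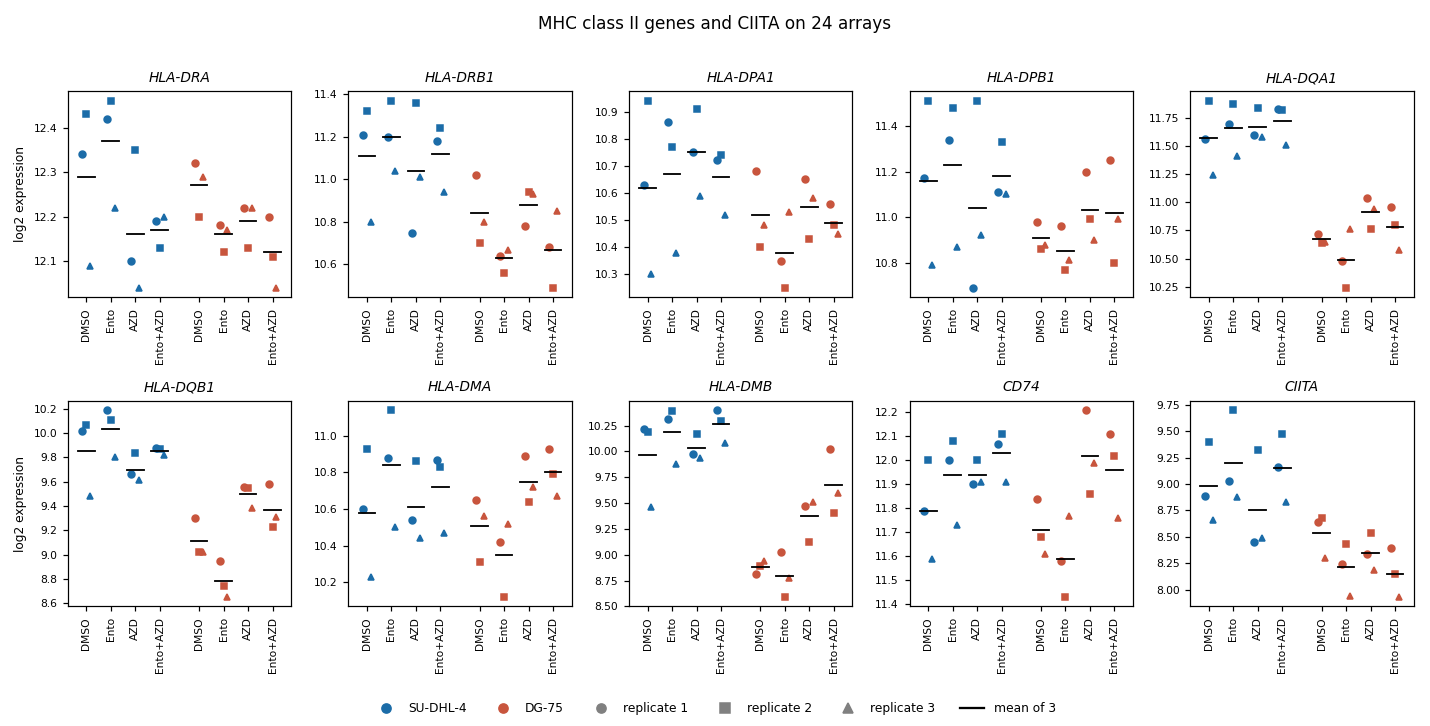
Log2 expression (y axis, its range set for each gene) of the 10 genes on all 24 arrays, by line and treatment (x axis). Colours are lines, marker shapes are replicate numbers and bars are means of 3. HLA-DMB in DG-75 lay at 8.81 to 8.94 under DMSO and at 9.40 to 10.02 under Ento+AZD, and in SU-DHL-4 the square of replicate 2 is at or near the top of most groups.

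In DG-75, HLA-DMB was the member that rose under the combination. It measured 8.81, 8.89 and 8.94 under DMSO, 9.03, 8.59 and 8.77 under Ento, 9.47, 9.12 and 9.51 under AZD, and 10.02, 9.40 and 9.60 under Ento+AZD, in the order of replicates 1 to 3. Every array with AZD, alone or combined, was above every array without it. Under Ento+AZD HLA-DMB was 0.79 above DMSO (SE 0.15, 95% interval 0.45 to 1.13, 1.73-fold, adjusted p = 0.0281), higher in 3 of 3 same-numbered pairs. Passing the test means here an adjusted p under 0.05 in limma with Benjamini-Hochberg adjustment over all 25575 rows, and a gene is called only if its change is also above 1 on the log2 scale, the study's threshold. HLA-DMB passed the test and was not called.

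HLA-DMB was thus 1 of 10 genes that passed in the direction higher, where 0.516% of all rows did, and 0 of 10 passed in the direction lower, against 1.87%. None of the 10 was called, against 0.833% of all rows. The result depended on single arrays. The combination array of replicate 1 was the highest of all at 10.02, and without it the change was 0.66 (adjusted p = 0.176). Without DMSO replicate 1 it was 0.64 (adjusted p = 0.199), and without replicate number 1 in every treatment it was 0.58 (adjusted p = 0.462). Of 9 fits that each left out an array or a replicate number, only the fit without Ento+AZD replicate 3 passed (0.86, adjusted p = 0.049), and the estimate stayed between 0.58 and 0.94.

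HLA-DMA, the partner chain of HLA-DMB, did not pass. It measured 10.65, 10.31 and 10.56 under DMSO and 10.93, 10.79 and 10.67 under Ento+AZD in DG-75, groups that did not overlap. The difference was 0.29 (95% interval 0 to 0.59, adjusted p = 0.314). CD74, the invariant chain, measured 11.84, 11.68 and 11.61 under DMSO and 12.11, 12.02 and 11.76 under Ento+AZD, a difference of 0.25 (-0.07 to 0.57, adjusted p = 0.447). These groups overlapped. The 3 genes of peptide loading therefore all had estimates above 0, with a median of 0.29, while the 6 chains of DR, DP and DQ split evenly, with 3 estimates above 0, 3 below and a median of 0.04 (HLA-DPA1 turned from -0.02 to above 0 under quantile normalization and with array medians subtracted). The median change of all rows in that comparison was -0.07.

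CIITA, the transactivator, had the opposite sign in DG-75. It measured 8.64, 8.68 and 8.30 under DMSO and 8.39, 8.15 and 7.93 under Ento+AZD, and was lower in 3 of 3 same-numbered pairs although the groups overlapped. The difference of -0.38 (-0.67 to -0.09) did not pass (adjusted p = 0.174). HLA-DRA, at 12.32, 12.20 and 12.29 under DMSO, measured 12.20, 12.11 and 12.04 under Ento+AZD. The highest combination array of HLA-DRA lay just under the lowest DMSO array, both at 12.20 after rounding, and the difference was -0.16 (-0.42 to 0.10, adjusted p = 0.583). Over the 10 genes, 2 had combination arrays all above the DMSO arrays, where 4.79% of all rows did, and 1 had them all below, against 14% of all rows.

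**Figure D2:**
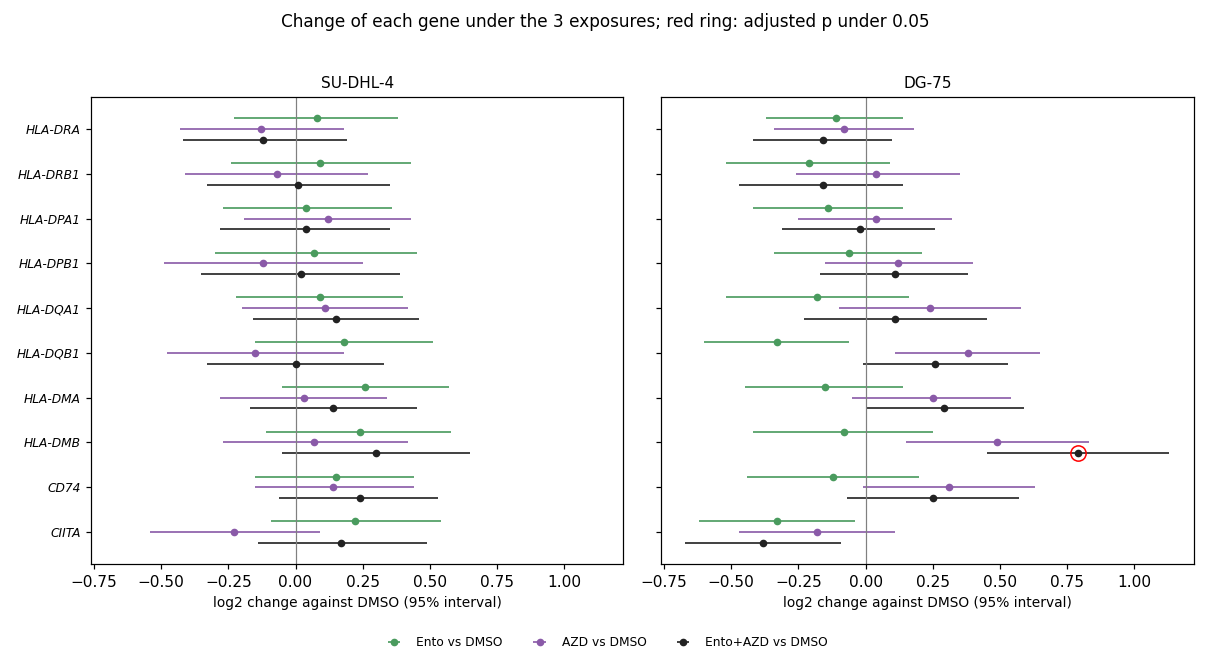
Log2 change against DMSO (x axis, points with 95% intervals) of each gene (y axis) under Ento, AZD and Ento+AZD in SU-DHL-4 (left) and DG-75 (right). The red ring marks the single change with an adjusted p under 0.05, HLA-DMB under Ento+AZD in DG-75, at 0.79. Under Ento all 10 points are right of 0 in SU-DHL-4 and left of 0 in DG-75.

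Under AZD alone in DG-75, 8 of 10 estimates were above 0, against 39.5% of all rows, with a median of 0.18 beside -0.06 for all rows, and none passed. HLA-DQB1, the DQ beta chain, measured 9.30, 9.02 and 9.02 under DMSO and 9.56, 9.55 and 9.38 under AZD. The AZD arrays were all above the DMSO arrays, by 0.38 on average (0.11 to 0.65, adjusted p = 0.184). HLA-DMB was 0.49 above DMSO (0.15 to 0.83, adjusted p = 0.175), CD74 0.31 above (adjusted p = 0.38), HLA-DMA 0.25 above (adjusted p = 0.466) and HLA-DQA1 0.24 above (adjusted p = 0.546). HLA-DMB, HLA-DQB1, HLA-DQA1 and CD74 did not overlap their DMSO arrays, 4 of 10 genes against 4.5% of all rows. In the test, 0 of 10 genes passed, where 0.293% of all rows did, and HLA-DMB and HLA-DQB1 had an unadjusted p under 0.05, 2 of 10 against 13.8%. With limma's prior variance fitted to the mean level, 2 members passed. CIITA was at -0.18 (-0.47 to 0.11, adjusted p = 0.605) in the same comparison.

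Under Ento alone in DG-75 all 10 estimates were below 0 and none passed, with a median of -0.15 and a range of -0.33 to -0.06, where 48.9% of all rows had estimates above 0 and the median of all rows was 0. HLA-DQB1 measured 8.95, 8.74 and 8.65 under Ento, each below the lowest DMSO array of 9.02, a difference of -0.33 (-0.60 to -0.06, adjusted p = 1). HLA-DRA at 12.12 to 12.18 and HLA-DRB1 at 10.56 to 10.67 also lay below all of their DMSO arrays, so that 3 of 10 genes did not overlap, against 3.56% of all rows. CIITA was at -0.33 (-0.62 to -0.04, adjusted p = 1). None of the 10 passed limma's adjusted test, where 1 row in all did (0.00391%), and HLA-DQB1 and CIITA had an unadjusted p under 0.05, 2 of 10 against 2.81%.

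Set against Ento alone, the combination gave larger differences than against DMSO for HLA-DMB, HLA-DQB1, HLA-DMA and CD74 in DG-75, and smaller ones for CIITA (-0.05), HLA-DRA (-0.04) and HLA-DRB1 (0.05), none of which passed, and of which CIITA and HLA-DRA turned above 0 with array medians subtracted. HLA-DMB was 0.88 higher (0.54 to 1.22, 1.84-fold, adjusted p = 0.0246) and HLA-DQB1 0.59 higher (0.32 to 0.86, 1.51-fold, adjusted p = 0.0409), both in 3 of 3 same-numbered pairs. HLA-DQB1 measured 9.58, 9.23 and 9.31 under the combination, all above the Ento arrays. The 2 genes that rose stand against 0.215% of all rows that passed in the direction higher. HLA-DMA was 0.45 higher (0.15 to 0.74, adjusted p = 0.131) and CD74 0.37 higher (0.05 to 0.69, adjusted p = 0.256), and neither passed. HLA-DMB, HLA-DMA and HLA-DQB1 did not overlap, 3 of 10 genes against 4.65% of all rows. HLA-DQB1 passed in none of the 9 fits that left out an array or a replicate number (0.56 to 0.65, adjusted p = 0.0693 to 0.511). HLA-DMB passed only without Ento replicate 3 (0.84, adjusted p = 0.0398), and the other 8 such fits gave 0.75 to 0.94 with adjusted p up to 0.341.

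Adding Ento to AZD made no detectable difference to the 10 genes in DG-75. The estimates ran from -0.21 for HLA-DRB1 to 0.30 for HLA-DMB (-0.04 to 0.64, adjusted p = 1). None passed limma's test or had an unadjusted p under 0.05, and no row of the table passed (0%). Measured against the sum of what each agent did alone, the combination was off by 0.39 for HLA-DMB (-0.09 to 0.87, adjusted p = 1) and 0.21 for HLA-DQB1 (-0.17 to 0.60, adjusted p = 1), where again no row of the table passed (0%) and none of the 10 had an unadjusted p under 0.05.

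In SU-DHL-4 no member passed the test under any exposure. HLA-DMB measured 10.22, 10.19 and 9.46 under DMSO and 10.40, 10.29 and 10.08 under Ento+AZD, a difference of 0.30 (-0.05 to 0.65, adjusted p = 0.441). The DMSO array of replicate 3 was the lowest of all 12 arrays, and each combination array was above its same-numbered DMSO array. CD74 was 0.24 higher (-0.06 to 0.53, adjusted p = 0.484). Of the 10 estimates 8 were above 0, HLA-DQB1 was at 0 and HLA-DRA at -0.12, with a median of 0.09 beside -0.08 for all rows, of which 36% were above 0. None of the 10 passed, against 2.36% of all rows, and none had an unadjusted p under 0.05.

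Ento alone gave estimates above 0 for all 10 genes in SU-DHL-4, from 0.04 to 0.26 with a median of 0.12, where 37.6% of all rows were above 0 and the median of all rows was -0.06. HLA-DMA was at 0.26 (-0.05 to 0.57, adjusted p = 0.652), HLA-DMB at 0.24 and CIITA at 0.22 (-0.09 to 0.54, adjusted p = 0.708). No gene's Ento arrays were all above its DMSO arrays (4.05% of all rows), and none passed (0.0547% of all rows did) or had an unadjusted p under 0.05. Under AZD the genes split into 5 estimates above 0 and 5 below, with a median of -0.02 (36.1% of all rows were above 0), CIITA at -0.23 (-0.54 to 0.09, adjusted p = 0.592) and HLA-DQB1 at -0.15. Again 0 of 10 passed, against 0.207% of all rows, and 0 had an unadjusted p under 0.05.

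Against the single agents the SU-DHL-4 combination differed little. CIITA measured 8.45, 9.32 and 8.49 under AZD and 9.16, 9.47 and 8.83 under Ento+AZD, higher in 3 of 3 same-numbered pairs by 0.40 (0.08 to 0.71, adjusted p = 0.632). It was the only member with an unadjusted p under 0.05 in that comparison, against 7.03% of all rows, and 0 of 10 passed, where 0.0313% of all rows did. HLA-DRA lay at 12.13 to 12.20 under Ento+AZD and at 12.22 to 12.46 under Ento, so that the arrays did not overlap, yet the difference was -0.19 (-0.50 to 0.11, adjusted p = 0.756). It was 1 of 10 genes with all combination arrays below the Ento arrays, against 7.15% of all rows, and 0 of 10 passed, against 0.102%, with none at an unadjusted p under 0.05. The departure from additivity passed for none of the 10 and for no row of the table (0%), and none of the 10 had an unadjusted p under 0.05.

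The opposite signs of the Ento estimates in the 2 lines were tested as a difference, SU-DHL-4 minus DG-75. All 10 differences were above 0, with a median of 0.29, where 40.6% of all rows were. CIITA differed by 0.55 (0.17 to 0.93, adjusted p = 1), HLA-DQB1 by 0.51 (0.14 to 0.89, adjusted p = 1) and HLA-DMA by 0.41 (0.03 to 0.79, adjusted p = 1). These 3 had an unadjusted p under 0.05, against 4.43% of all rows, and 0 of 10 passed, where 0.00782% of all rows did. For AZD the difference was -0.53 for HLA-DQB1 (-0.91 to -0.16, adjusted p = 0.615), the one member with an unadjusted p under 0.05 (6.16% of all rows), and no row of the table passed (0%). For Ento+AZD it was 0.55 for CIITA (0.18 to 0.93, adjusted p = 0.483) and -0.49 for HLA-DMB (-0.94 to -0.04, adjusted p = 0.718), 2 members with an unadjusted p under 0.05 (6.51% of all rows), and 0 of 10 passed, against 0.0352% of all rows. A response of any member that differs between the lines was therefore not shown.

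With both lines in a single fit, HLA-DMB rose under Ento+AZD by 0.55 (0.25 to 0.84, 1.46-fold, adjusted p = 0.0182), higher in 6 of 6 same-numbered pairs. It was 1 of 10 genes that passed in the direction higher, against 1.46% of all rows. The change did not pass without DG-75 DMSO replicate 1 (0.47, adjusted p = 0.0685), without DG-75 Ento+AZD replicate 1 (0.45, adjusted p = 0.0658), without SU-DHL-4 DMSO replicate 3 (0.51, adjusted p = 0.0527), without replicate number 1 (0.47, adjusted p = 0.12) or without replicate number 3 (0.50, adjusted p = 0.204). It passed in the remaining 10 of 15 such fits. CD74 was also higher in 6 of 6 pairs, by 0.25 (0.04 to 0.45, adjusted p = 0.138), and did not pass. Under AZD over both lines 0 of 10 passed, against 4.66% of all rows, with CD74 at 0.23 (0.02 to 0.43, adjusted p = 0.217), the one member with an unadjusted p under 0.05, against 18% of all rows. CIITA was lower in 6 of 6 pairs there (-0.21, -0.46 to 0.05, adjusted p = 0.408). Changing the model or the scaling, with all arrays kept, gave -0.21 to -0.05 for CIITA. In DG-75 alone its AZD estimate was 0 under quantile normalization. Under Ento over both lines the estimates ran from -0.07 to 0.08, 0 of 10 passed or had an unadjusted p under 0.05, and 0.00782% of all rows passed.

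The differences between the lines were larger than those between treatments for some of the genes. Under DMSO, HLA-DMB measured 10.22, 10.19 and 9.46 in SU-DHL-4 against 8.81, 8.89 and 8.94 in DG-75, a difference of 1.08 (0.69 to 1.46, 2.11-fold, adjusted p = 0.000199). HLA-DQA1, the DQ alpha chain, measured 11.56, 11.90 and 11.24 against 10.72, 10.64 and 10.65, a difference of 0.90 (0.54 to 1.25, 1.86-fold, adjusted p = 0.000488). HLA-DQB1 measured 10.02, 10.07 and 9.48 against 9.30, 9.02 and 9.02, a difference of 0.74 (0.46 to 1.02, 1.67-fold, adjusted p = 0.000322). None of the 3 overlapped between the lines, against 16.1% of all rows higher in SU-DHL-4 without overlap, and all 3 passed in each of 9 fits that left out an array or a replicate number.

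These were 3 of 10 genes that passed in the direction higher in SU-DHL-4, against 7.91% of all rows, and HLA-DMB alone was called, against 7.24%. The difference of HLA-DMB was 0.96 without DG-75 DMSO replicate 1, 0.94 when replicate 2 of SU-DHL-4 DMSO was dropped, 0.91 without replicate number 1 and 0.97 without replicate number 2, all under the fold minimum, and it was at the minimum without SU-DHL-4 DMSO replicate 1. That of HLA-DQA1 was above the minimum without SU-DHL-4 DMSO replicate 3 (1.02) and without replicate number 3 (1.05), so that these fits called 0 to 2 genes. CIITA was 0.44 higher in SU-DHL-4 (0.11 to 0.78, adjusted p = 0.06), HLA-DRB1 0.27 (adjusted p = 0.32) and HLA-DPB1 0.25 (adjusted p = 0.442), and none of these passed. HLA-DRA, HLA-DPA1, HLA-DMA and CD74 differed by 0.02 to 0.11. All 10 estimates were above 0 in the deposited values, where 51.7% of all rows were, and HLA-DRA alone turned below 0 after quantile normalization. Without replicate number 2, HLA-DRA (-0.09), HLA-DPA1 (-0.11), HLA-DMA (-0.19) and CD74 (-0.04) were below 0.

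**Figure D3:**
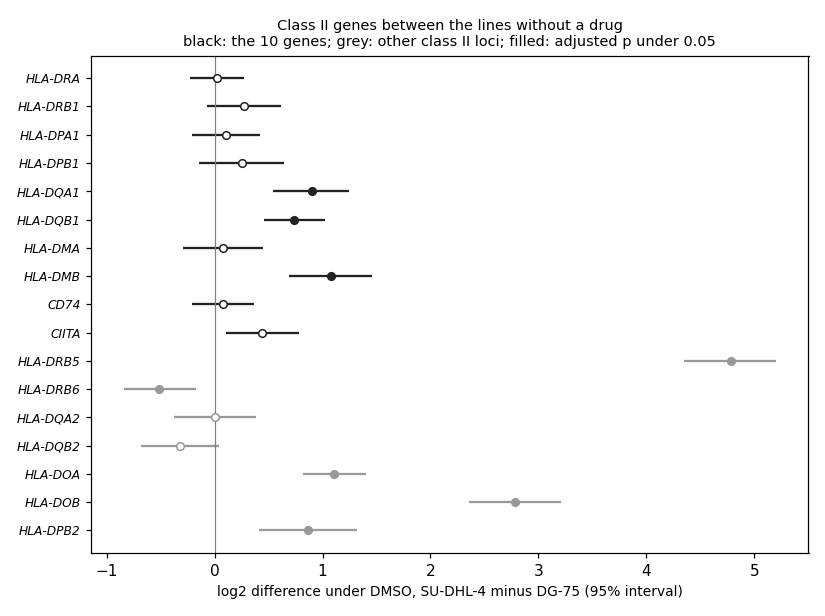
Log2 difference under DMSO, SU-DHL-4 minus DG-75 (x axis, points with 95% intervals), of the 10 genes (black) and of 7 other class II loci (grey); filled points have an adjusted p under 0.05. HLA-DMB at 1.08 is the furthest of the 10, and HLA-DRB5 at 4.78 is the furthest of all shown.

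The other class II loci of the table showed how unequal the lines were. HLA-DRB5, which encodes a second DR beta chain carried only by some haplotypes, measured 11.12, 11.42 and 10.83 under DMSO in SU-DHL-4 and 6.77, 5.84 and 6.43 in DG-75, a difference of 4.78 (4.35 to 5.20, adjusted p = 3.93e-13). HLA-DOB, a chain of HLA-DO, which holds back HLA-DM, was 2.78 higher in SU-DHL-4 (adjusted p = 1.75e-09) and its partner HLA-DOA 1.11 higher (adjusted p = 3.83e-06). HLA-DPB2, a pseudogene, was 0.87 higher and HLA-DRB6, another pseudogene, was 0.51 lower in SU-DHL-4 (log2 difference -0.51), and both passed, HLA-DRB6 in 2 and HLA-DPB2 in 7 of 9 fits that left out an array or a replicate number. In all, 4 of these 7 loci passed in the direction higher, against 7.91% of all rows, and 1 in the direction lower, against 10.2%. HLA genes differ in sequence between people, so that a difference in level between 2 lines and a difference in how well their alleles match the probes cannot be told apart, since probe sequences were not used here. HLA-DRB1, HLA-DRB5 and HLA-DRB6, and likewise HLA-DQA1 with HLA-DQA2 and HLA-DQB1 with HLA-DQB2, are near-copies of each other, so that their values are uncertain in either line. Within a line the alleles are the same under every exposure.

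HLA-DOB also rose under Ento+AZD in DG-75. It measured 5.98, 5.84 and 5.83 under DMSO, 6.76, 6.48 and 6.36 under AZD and 6.81, 6.19 and 6.50 under Ento+AZD. All AZD and Ento+AZD arrays were above all DMSO arrays. The change was 0.62 under Ento+AZD (0.31 to 0.92, adjusted p = 0.044), which passed, and 0.65 under AZD (0.35 to 0.96, adjusted p = 0.0722), which did not. Against Ento alone the combination was 0.86 higher (adjusted p = 0.0211), which passed only without Ento replicate 3 (0.80, adjusted p = 0.0335) among 9 fits that left out an array or a replicate number (0.77 to 0.98, adjusted p up to 0.348). HLA-DOB was 1 of 7 other loci that passed in the direction higher in each of these comparisons of the combination, against 0.516% of all rows for DMSO and 0.215% for Ento. None of the 7 passed under AZD or Ento alone, against 0.293% and 0.00391% of all rows in DG-75 and 0.207% and 0.0547% in SU-DHL-4. In limma 1 of the 7 had an unadjusted p under 0.05 under AZD in DG-75, against 13.8% of all rows, and 1 under Ento in SU-DHL-4, against 8.59%. The rise against DMSO did not pass in any of 9 fits that left out an array or a replicate number (0.51 to 0.75, adjusted p = 0.0608 to 0.534).

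The known regulators of class II transcription, 24 genes that include the RFX and NF-Y subunits, interferon regulatory factors and chromatin enzymes, were compared as a list. In DG-75 under Ento+AZD 0 of the 24 rose, against 0.516% of all rows, and 2 fell, against 1.87%. These were IRF4, a regulator of B-cell activation and plasma cell fate (-0.81, adjusted p = 0.0403), and EZH2, the methyltransferase for lysine 27 of histone H3 (-0.72, adjusted p = 0.0466). IRF4 measured 7.51, 8.24 and 7.24 under DMSO and 6.65, 7.23 and 6.69 under the combination. The lowest DMSO array and the highest combination array were nearly level. IRF4 passed in none of 9 fits that left out an array or a replicate number (-0.97 to -0.63, adjusted p up to 0.462), and EZH2 in 1 (-0.88 to -0.62). In SU-DHL-4 none of the 24 passed under any exposure. Over both lines IRF8, a factor of germinal centre B cells, rose by 0.38 under Ento+AZD (adjusted p = 0.00735), passing in 13 of 15 fits that left out an array or a replicate number. In that comparison 1.46% of all rows passed in the direction higher. Between the lines under DMSO 3 of the 24 were higher in SU-DHL-4, against 7.91% of all rows, and 4 lower, against 10.2%, among them EBF1, a B-lineage factor, at 2.03 (adjusted p = 9.64e-10) and IRF4 at -2.24 (adjusted p = 1.35e-07).

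Of 14 genes of class II peptide loading and turnover beyond the members, 0 rose and 0 fell in DG-75 under Ento+AZD against DMSO, and CD63, a tetraspanin of the compartment where class II is loaded, fell by 0.71 on the log2 scale in SU-DHL-4 (adjusted p = 0.0243), 1 of 14 genes against 2.06% of all rows, passing in none of 9 fits that left out an array or a replicate number (adjusted p up to 0.265). Over both lines CD63 fell by 0.55 on the log2 scale (adjusted p = 0.000579), passing in 15 of 15 such fits, and 2 of the 14 genes fell, against 7.03% of all rows. Between the lines under DMSO 8 of the 14 were higher in SU-DHL-4, against 7.91% of all rows, and 2 lower, against 10.2%. CTSH, an endosomal protease, measured 8.11, 8.22 and 8.06 in SU-DHL-4 and 3.38, 2.66 and 4.07 in DG-75, a difference of 4.76 (adjusted p = 7.77e-11). MARCHF1, the ligase that marks class II molecules for degradation, was 2.94 higher (adjusted p = 1.58e-07). LGMN, another endosomal protease, ran the other way, at 5.28, 5.76 and 5.52 against 7.89, 7.69 and 7.85 (difference -2.29, adjusted p = 9.52e-08).

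Costimulation, the second signal that a T cell needs beside the peptide, was also compared. Of 13 genes 1 rose and 1 fell in DG-75 under Ento+AZD, and both were called, 2 of 13 against 0.833% of all rows. CD80, a ligand of CD28, measured 7.0, 7.33 and 7.01 under DMSO and 5.56, 5.31 and 6.03 under the combination, a change of -1.48 (-2.00 to -0.96, adjusted p = 0.0196). Under AZD alone it measured 5.26, 5.83 and 5.46 (-1.60, adjusted p = 0.0471). CD40, the receptor through which T cells license B cells, measured 6.79, 7.02 and 6.95 under DMSO and 8.31, 7.53 and 8.04 under Ento+AZD, a change of 1.04 (0.64 to 1.45, adjusted p = 0.0215). Leaving out an array or a replicate number, the change of CD80 under Ento+AZD passed in 3 of 9 fits (-1.78 to -1.16, adjusted p up to 0.332), that of CD40 in 2 (0.80 to 1.31, adjusted p up to 0.38) and that of CD80 under AZD in none (-1.71 to -1.50, adjusted p up to 0.845). In SU-DHL-4 CD40 rose by 0.70 under Ento+AZD (adjusted p = 0.0347) and passed in none of 9 such fits (0.59 to 0.79). It was 1 of 13 genes that passed there, against 2.36% of all rows. Over both lines CD40 rose by 0.87 (adjusted p = 0.000187) and CD80 fell by 1.19 (adjusted p = 0.00115), each in 15 of 15 such fits. Of the 13 genes 1 thus rose, against 1.46% of all rows, and 1 fell, against 7.03%.

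**Figure D4:**
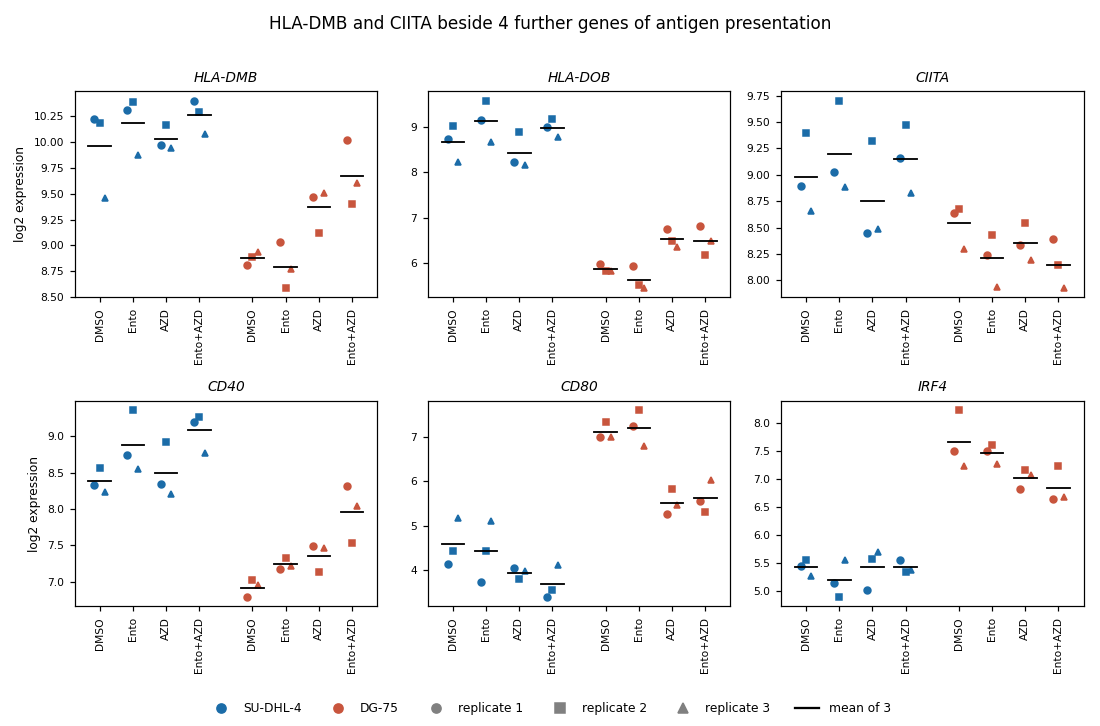
Log2 expression (y axis, its range set for each gene) of HLA-DMB, HLA-DOB, CIITA, CD40, CD80 and IRF4 on all 24 arrays by line and treatment (x axis). Colours are lines, marker shapes replicate numbers and bars means of 3. In DG-75 CD80 lay at 7.0 to 7.33 under DMSO and at 5.31 to 6.03 under Ento+AZD, while CD40 lay at 6.79 to 7.02 and 7.53 to 8.31.

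In the lists of class I presentation and of the interferon response no gene was called under Ento+AZD in DG-75. Of 22 genes of class I presentation 1 passed in the direction higher, against 0.516% of all rows. TAPBPL, a class I peptide editor, rose by 0.75 in DG-75 under Ento+AZD (adjusted p = 0.0284; adjusted p up to 0.462 and passing in none of 9 fits that left out an array or a replicate number) and none fell. Over both lines under Ento+AZD the immunoproteasome subunits PSMB8 (-0.49, adjusted p = 0.00451) and PSMB9 (-0.60, adjusted p = 0.00692) fell, each in 13 of 15 such fits. They were 2 of 22 genes, a share close to the 7.03% of all rows that passed in the direction lower. Under AZD over both lines PSMB8 was at -0.65 (adjusted p = 0.00195), where 4.66% of all rows passed in either direction. Of 22 interferon response genes none passed in DG-75 under Ento+AZD. The medians of these 2 lists in DG-75 were 0.01 and 0.13, beside 0.11 for the 10 members.

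The summed log2 level of 7 B-cell markers in DG-75 was 58.8 to 61.1 under DMSO, 59.6 to 61.5 under Ento, 62.2 to 63.1 under AZD and 62.4 to 65.3 under Ento+AZD, so that the 2 groups with AZD were above both groups without it. CD79B, a chain of the B-cell receptor, rose by 1.03 under Ento+AZD (adjusted p = 0.0227) in DG-75. It was 1 of the 7 that rose, against 0.516% of all rows, and none of the 7 fell, against 1.87%. Of 6 plasma cell markers 1 rose and 2 fell in that comparison, with sums of 40.3 to 41.5 under DMSO and 38.3 to 39.5 under Ento+AZD. XBP1, a factor of secretory cells, rose by 0.67 (adjusted p = 0.0258), and TNFRSF17, the plasma cell receptor BCMA, fell by 1.47 (adjusted p = 0.0215). CD79B, XBP1 and TNFRSF17 each passed in 1 of 9 fits that left out an array or a replicate number. In SU-DHL-4 XBP1 rose by 1.25 under Ento+AZD (adjusted p = 0.00811) and was called, passing in 5 of 9 such fits (1.11 to 1.38, adjusted p up to 0.116). It was 1 of 6 plasma cell markers that passed, against 2.36% of all rows. The others ran from -0.44 for TNFRSF17 to 0.15 for SDC1. The plasma cell sums in SU-DHL-4 were 39.6 to 40.3 under DMSO and 39.4 to 41.7 under Ento+AZD. The B-cell sums were 67.8 to 70.5 under DMSO and 69.3 to 70.9 under Ento+AZD. The summed levels of 5 T-cell markers were 14.6 to 16.3 under DMSO and 14.2 to 14.4 under Ento+AZD in DG-75. The summed levels of 5 markers of monocytes and macrophages were 21.4 to 22.7 under DMSO and 21.1 to 23.2 under Ento+AZD in DG-75, and those of 5 dendritic cell markers 18 to 19.7 and 17.4 to 18.1. The part of these markers in the values of HLA-DMB was not tested.

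The replicate number set the class II genes of SU-DHL-4 apart more than the treatment did. Averaged over the 4 treatments, CIITA was at 8.88 in replicate 1, 9.47 in replicate 2 and 8.72 in replicate 3, a range of 0.76 against 0.45 between the treatment means. HLA-DPB1 was at 11.08, 11.46 and 10.92, a range of 0.54 against 0.19. All 10 genes were highest in replicate 2 and all 10 were lowest in replicate 3, where 32.6% and 27.5% of all rows were. The range over replicate numbers exceeded that over treatments for 9 of the 10 genes (8 after subtraction of array medians), against 28.9% of all rows. In DG-75 it did so for 1 of 10 genes, against 27.7%. There 1 gene was highest in replicate 2, against 26.9% of all rows, and 2 were lowest in replicate 3, against 31.7%. What the replicate numbers stand for, such as a culture, a passage or a day, is not stated.

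**Figure D5:**
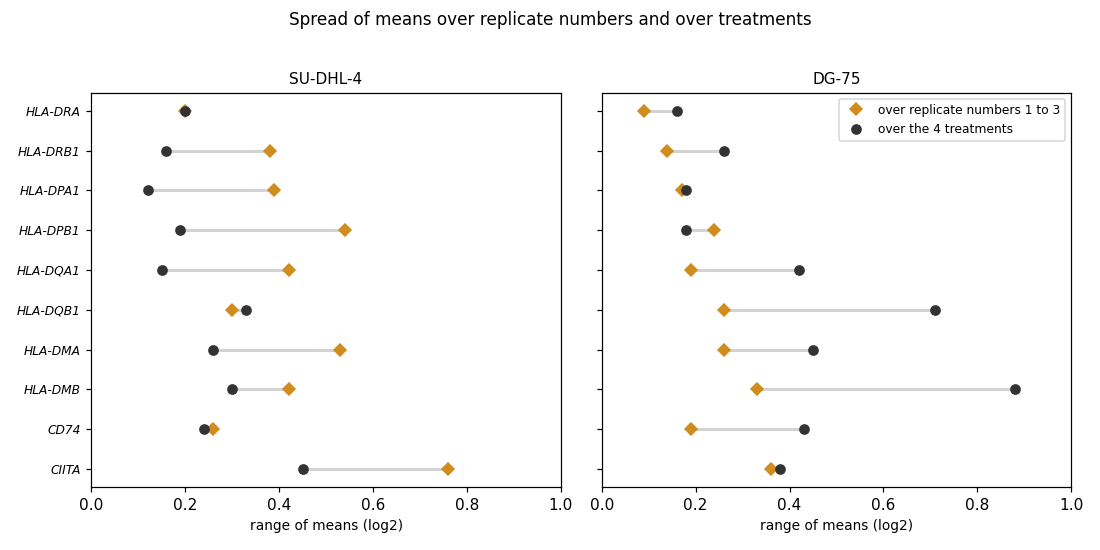
Range of the means over replicate numbers 1 to 3 (diamonds) and over the 4 treatments (circles), in log2 units (x axis), for each gene (y axis) in SU-DHL-4 (left) and DG-75 (right). In SU-DHL-4 the diamond of CIITA is at 0.76 and its circle at 0.45, whereas in DG-75 the circle of HLA-DMB is at 0.88 and its diamond at 0.33.

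How the genes ran with CIITA is described over the 12 arrays of each line, which share 4 treatments and 3 replicate numbers. In SU-DHL-4 the correlation with CIITA ran from 0.56 for HLA-DPA1 (Spearman's rho 0.60) to 0.88 for HLA-DRB1 (rho 0.92) and HLA-DPB1 (rho 0.86). With the means of the replicate numbers removed, HLA-DRB1 kept 0.67 and HLA-DPB1 0.61 while HLA-DPA1 was at -0.24. In DG-75 it ran from -0.28 for HLA-DMB (rho -0.34) to 0.47 for HLA-DRA (rho 0.44). With the means of the replicate numbers removed, HLA-DRA was at 0.79, HLA-DRB1 at 0.67 and HLA-DMB at -0.32. Among themselves, the other 9 genes had a median correlation of 0.79 over 36 pairs in SU-DHL-4, with 0.57 for DG-75. The difference between the lines in these correlations was not tested.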

How the data were processed

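Expression was measured on 24 Clariom D arrays of 2 lymphoma lines. Per the labels, the authors normalized the data by RMA with limma, which gives the deposited log2 values, and their methods map probes to gene symbols with affycoretools. That the logarithm has base 2 is inferred from RMA. The genome build and the annotation version are not given in the sources used here. Probe identifiers are absent from the table used. All 24 value columns were used (0 left over) and no array pair held identical values.

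From the log2 values, limma 3.58.1 in R 4.3.3 (lmFit, contrasts.fit, eBayes) was fitted per line with treatment and replicate number as terms, for the combined comparisons over all 24 arrays with line added, and for line differences with 8 groups. P-values were adjusted over all 25575 rows (Benjamini-Hochberg). Genes named are the 10 members and, from 6 further lists, those called first and otherwise some that passed the test or had the smallest p. Genes outside this rule, such as HLA-DRB6, HLA-DPB2 and the markers, were named after their values were seen. The members and lists were chosen with earlier results of these data known. The lists' symbols IFI30, HLA-DRB3, HLA-DRB4 and TRAC were not matched. The number of arrays limits the precision. Alternatives dropped the replicate number, pooled the arrays into 1 fit, used just the 2 treatments compared or filtered low rows. They also covered quantile normalization, subtraction of array medians, a prior variance by level, no fold minimum, treat against 1.2-fold (a test of changes beyond that fold), means over rows of a symbol, and leaving out arrays or replicate numbers. Code was tested on simulated data.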

Additional observations from a re-analysis of the deposited data

How the results depend on the processing

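Of 1391 recomputed changes of the members, for the genes whose change in a comparison is given by name, 1316 kept direction and side of the threshold, 38 lost it, 11 gained it and 26 changed sign, none of these past the threshold on either side. Of 966 of the other genes named, 746 kept it, 217 lost it, 3 gained it and none reversed. These counts include settings that could hardly move a change. Dropping the fold minimum reran the same fit, and averaging the rows of a symbol left the members, each with a single row, at their estimates. Most of the members' changes had not passed in the main fit, so that keeping their side of the threshold says little. The replicate number was a term of the model, after the batch term of the study's, although same-numbered arrays of a line did not all deviate together (lowest correlation of a pair -0.111 for SU-DHL-4, -0.355 for DG-75), so that a shared origin of same-numbered arrays is not established and the counts over same-numbered pairs are descriptions. Without the replicate block the members past the adjusted p in Ento+AZD against Ento in DG-75 were 1 in place of 2, and HLA-DMB under Ento+AZD against DMSO in DG-75 kept 0.79 with an adjusted p of 0.0353.

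In Ento+AZD against DMSO in DG-75, 1 member passed, and 0 passed in a fit of the 2 treatments compared and in treat against 1.2-fold, while no fold minimum made 1 call in place of 0. Leaving out an array or a number gave 0 to 1. In Ento+AZD against Ento in DG-75, 2 passed, and 0 passed in the fit of the 2 treatments and in treat, and 4 under the prior variance by level. Quantile normalization called 1 and no fold minimum 2, in place of 0. Leaving out an array or a number gave 0 to 1 past the adjusted p. AZD against DMSO in DG-75 had 2 past it under the prior variance by level, in place of 0. Over both lines under Ento+AZD the count of 1 became 2 with array medians subtracted and with the prior variance by level and 0 in treat, the call count 1 without a fold minimum, and 0 to 1 passed on leaving out an array or a number. Between the lines 3 members were called without a fold minimum and 3 in treat, in place of 1, and 0 to 2 on leaving out an array or a number. The causes were not tested, beyond the fewer arrays of the smaller fits. Subtracting array medians moved the median change of all rows in SU-DHL-4 from -0.06 to 0.05 under Ento, from -0.08 to 0.04 under AZD and from -0.08 to 0.05 under Ento+AZD. All 10 Ento estimates kept their sign in both lines under both scalings.

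The changes of sign were all in estimates near 0. Under Ento+AZD against DMSO, HLA-DRA in SU-DHL-4 went from -0.12 to 0.01 with array medians subtracted, so that all 10 were above 0, and HLA-DPA1 in DG-75 from -0.02 to 0.15 under quantile normalization and 0.06 with array medians subtracted, with -0.08 to 0.03 on leaving out an array or a number. Under Ento+AZD against Ento in DG-75, CIITA went to 0.09 under quantile normalization and 0.02 with array medians subtracted, and HLA-DRA to 0.03 with the latter. Leaving out an array or a number gave -0.15 to 0.06 for CIITA, -0.07 to 0.01 for HLA-DRA and -0.03 to 0.12 for HLA-DRB1 there. Between the lines HLA-DRA went to -0.02 under quantile normalization, and leaving out an array or a number gave -0.09 to 0.13 for HLA-DRA, -0.11 to 0.25 for HLA-DPA1, -0.19 to 0.28 for HLA-DMA and -0.04 to 0.15 for CD74. The estimates of Ento+AZD against Ento in SU-DHL-4 were 3 above 0 and 7 below, and 7 above and 3 below under quantile normalization. The causes were not tested.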

Other observations

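The genes outside the lists whose log2 values ran most like HLA-DRA over the 24 arrays, after the mean of each line was removed, were LINC01800 (r = 0.80), NANS (0.79) and FCRLB (0.79). Those most like CIITA were PRKCB (0.84), SELPLG (0.82) and ZNF800 (0.79). Among the members, HLA-DPB1 (0.70), HLA-DRB1 (0.67) and HLA-DRA (0.62) were closest to CIITA in this measure and HLA-DMB (0.18) the furthest. The arrays share 3 replicate numbers and 4 treatments, and these values carry no test.

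Costimulation genes also differed between the lines under DMSO, with 3 of 13 higher in SU-DHL-4, against 7.91% of all rows, and 3 lower, against 10.2%. CD86 was 1.56 higher (adjusted p = 0.000634) and CD40 1.46 higher (adjusted p = 3.33e-05), whereas CD80 was at -2.53 (adjusted p = 5.97e-07), CD70 at -2.16 (adjusted p = 2.44e-06) and CD58, the ligand of CD2, at -2.03 (adjusted p = 0.00403). CD58 did not pass in 1 of 9 fits that left out an array or a replicate number (adjusted p up to 0.0951).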
